A study of Mus musculus with 9 samples.

Results

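Genes of the moving apparatus of the sperm flagellum were followed through the step in which type B spermatogonia become preleptotene (PL) spermatocytes, with and without retinoic acid (RA). The genes are those whose symbol in the count table names an axonemal dynein heavy, intermediate or light chain (Dnah, Dnaic, Dnal), a dynein arm assembly factor (Dnaaf, Zmynd10), a radial spoke protein (Rsph, Iqub), a ruler or nexin-dynein regulatory complex protein (Ccdc39, Ccdc40, Ccdc65, Drc), or a cilia and flagella associated protein (Cfap, with Enkur and Mns1). Of the 24505 genes in the table, 20236 had any count, and 61 of these matched. They were taken by name and not by any measured value, though earlier results of these data were known when the names were chosen.

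mRNA was sequenced from 9 libraries, 3 of each of 3 groups. All were made from cells sorted by fluorescence from Uchl1-eGfp mice of a C57BL/6 line outcrossed to CD-1. EGFP in these mice is under the Uchl1 promoter, so the sort follows how far that promoter has gone down and selects live cells by one reporter alone. All mice had been given the drug WIN 18,446, which blocks RA synthesis, at 100 µg per g body weight from postnatal day (P) 1, and all received 10 µl of RA at 10 µg per µl at P11, which starts differentiation of the whole cohort. Intermediate and type B (In/B) spermatogonia were the EGFP-bright cells at P17 and PL spermatocytes the EGFP-dim cells at P19. In/B and RA-sufficient mice received no WIN 18,446 after that injection. RA-deficient mice were kept on it, so their cells too had been exposed to the pulse of RA at P11. Testes of several pups were pooled for each preparation. Nothing in the sample records ties each library to its own litter, so p-values measure the spread between these libraries, which may in part be technical.

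The axoneme is the microtubule core of motile cilia and of the sperm tail. It is a ring of doublet microtubules around a central pair, and rows of dynein motors on each doublet walk along the next one and bend the tail. Outer arms give most of the power and inner arms shape the wave. Radial spokes carry signals from the central pair to the arms, the nexin-dynein regulatory complex links neighbouring doublets, Ccdc39 and Ccdc40 form the ruler that sets the spacing of arms and spokes, and proteins inside the doublets stabilize them. Dynein arms are put together in the cytoplasm by dedicated assembly factors before they are carried into the tail. The tail itself is built by spermatids, after meiosis, and many of its genes are known to be transcribed earlier, in spermatocytes.

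Total counts ran from 12612959 to 27042274 per library. A level is given throughout as counts per 1000000 counts (CPM) after TMM scaling over the 9 libraries, and 3 counts, the floor used here, correspond to 0.111 to 0.238 CPM by total counts. A pair of libraries stood apart. Over 15875 genes, log2 CPM of RA-deficient PL 3 correlated with the other two of its group at 0.893 and 0.891 (Pearson's r across genes, which are not independent replicates), against 0.947 between those and 0.959 to 0.986 within the other groups. The 6 spermatogonial markers were Kit, Dmrt1, Uchl1, Zbtb16, Sohlh1 and Sohlh2. They summed to 3531 to 5263 CPM in In/B, 638 to 869 CPM in RA-sufficient PL and 3180, 3297 and 1467 CPM in RA-deficient PL. All 6 were called higher in RA-deficient than in RA-sufficient PL. By this sum RA-deficient PL 1 and 2 lay near In/B and RA-deficient PL 3 nearer to RA-sufficient PL. The Uchl1 promoter drives the EGFP of the sort, so the level of Uchl1 itself was in part set by the gate. Kit, a receptor of differentiating spermatogonia, had 561 and 521 CPM in RA-deficient PL 1 and 2 and 20.3 CPM in RA-deficient PL 3, against 327 to 404 CPM in In/B and 20.2 to 41.0 CPM in RA-sufficient PL. RA-sufficient PL 1 had the highest summed level of pachytene spermatocyte markers, 1478 CPM against 713 and 665 CPM in the rest of its group, 260.2, 269 and 614 CPM in RA-deficient PL and 98.2 to 173 CPM in In/B. In RA-deficient PL 1 and 2 much of this sum came from Mybl1 alone, whose levels are given in the closing section. Markers of meiotic entry summed to 699.8 to 1432 CPM in In/B, 2433 to 3412 CPM with RA and 3279.7 to 3891 CPM without. Stra8, a gene that RA switches on, was at 444, 126 and 121 CPM in RA-sufficient PL and at 377, 365 and 81.5 CPM in RA-deficient PL, so the groups overlapped. Another RA target, the RA-degrading enzyme Cyp26a1, was higher in every RA-sufficient library, at 13.8, 9.76 and 13.4 CPM with RA and 0, 0.475 and 1.18 CPM without.

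Other cell types also differed between the sorts. The 9 Sertoli cell markers that were measured summed to 77.6 to 383 CPM in In/B, 3165 to 4143 CPM in RA-sufficient PL and 318 to 553 CPM in RA-deficient PL. All 9 were called higher in RA-sufficient PL than in spermatogonia, and all 9 were called lower in RA-deficient than in RA-sufficient PL. Peritubular and stromal markers summed to 104 to 166, 1007 to 1375 and 156 to 194 CPM in the same order, Leydig cell markers to 9.56 to 15.9, 32.5 to 38.6 and 12.045 to 24.05 CPM, and macrophage and blood markers to at most 13.7 CPM in any library. The 9 peritubular and stromal markers did not move together. From In/B to RA-sufficient PL 6 were called higher and 1 lower. In RA-deficient against RA-sufficient PL 2 were called lower and 1 higher, with a median log2 fold change of -0.26. Markers of spermatids summed to 3.13 to 5.22 CPM in In/B, 29.4 to 51.6 CPM in RA-sufficient PL and 3.00, 3.13 and 27.0 CPM in RA-deficient PL. Of these, Prm1, Prm2 and Tnp1, which package the spermatid nucleus, were at 1.104 CPM or lower in each of the 9 libraries. The 6 markers of multiciliated cells, another cell type with motile axonemes, had Sntn at 0 counts throughout and Gmnc at 0.121 CPM or lower. They summed to 13.8 to 19.2 CPM in In/B, 17.4 to 20.5 CPM in RA-sufficient PL and 38.4, 26.9 and 13.8 CPM in RA-deficient PL. In bulk libraries fewer cells of a type and less RNA per cell cannot be told apart, and the part of these cell types in the results below was not tested.

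**Figure D1:**
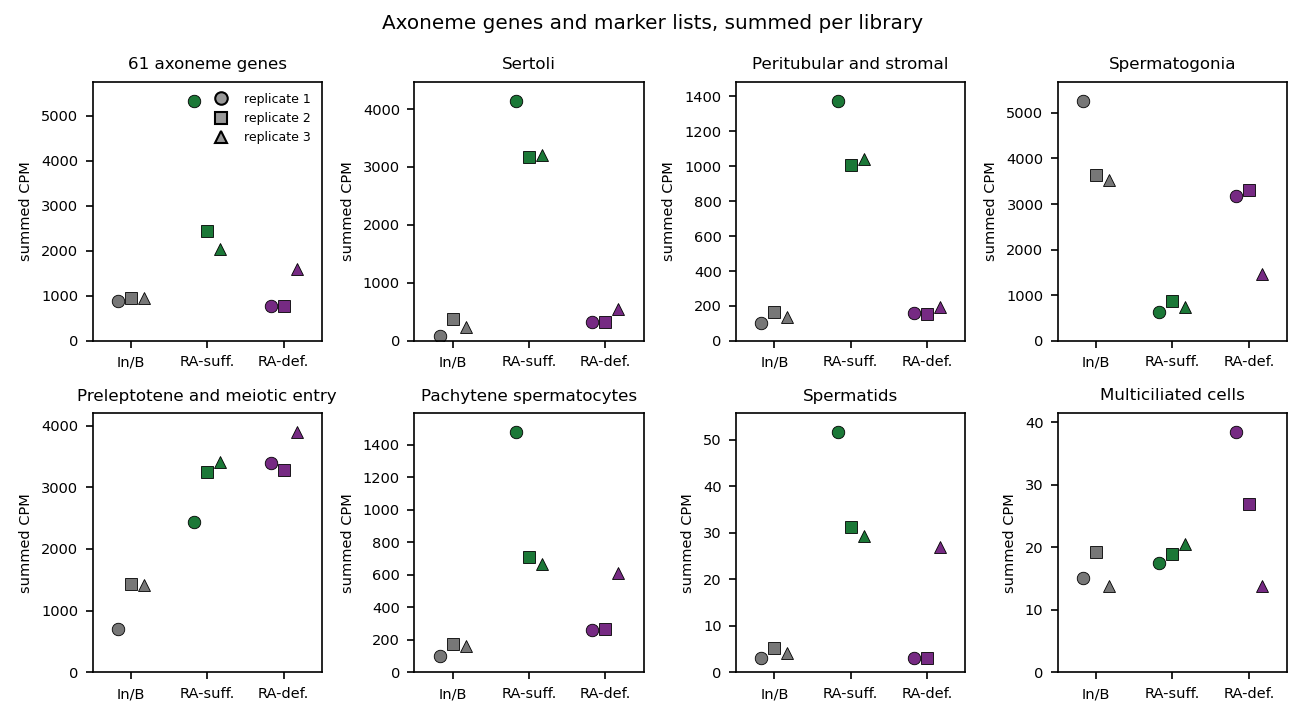
Summed level (CPM, linear axis from 0) of the 61 axoneme genes and of 7 marker lists in each library, by group, with a symbol for each replicate. The axoneme genes and the pachytene markers are highest in RA-sufficient PL 1, and in both lists RA-deficient PL 3 lies above RA-deficient PL 1 and 2, while Sertoli markers are high in the 3 RA-sufficient libraries alone.

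Most axoneme genes, 44 of the 58 tested, rose from In/B to PL spermatocytes when RA was present. Summed over the 61 genes, the level was 877, 962 and 949.8 CPM in In/B, 5334, 2433 and 2048 CPM in RA-sufficient PL and 769, 782 and 1591 CPM in RA-deficient PL. All RA-sufficient libraries lay above all In/B libraries, and RA-deficient PL 1 and 2 lay below the lowest In/B library. Besides the 44 called higher, 2 genes were called lower, where a call needs an adjusted p below 0.05 in edgeR's quasi-likelihood test and a log2 fold change beyond 1 in either direction. For RA-sufficient PL against In/B, 45.4% of all 15001 genes tested were called, 26.1% higher and 19.3% lower. The median log2 fold change was 2.67 over the axoneme genes and 0.04 over all genes tested. In 48 of the 61 every RA-sufficient library was above every In/B library, as in 35.7% of all genes tested. Of the 44 genes called higher, 42 were called in each of the 6 fits that left out 1 library, the exceptions being Dnah1 and Cfap157.

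Without RA few axoneme genes were called against In/B. Of 58 genes tested, 4 were called higher in RA-deficient PL than in In/B and 0 lower, where 23.2% of 14877 genes were called, 11.4% higher and 11.8% lower. The 4 were Dnah7b, Dnah2, Cfap61 and Cfap54. In edgeR 10 genes had an unadjusted p below 0.05 and a positive fold change and 3 a negative one, and DESeq2 called 6 higher and 2 lower (Cfap77 and Dnaaf3), where it called 11.1% of all genes higher and 11.9% lower. With library size as the one scaling, 7.55% of all genes were called higher and 18.6% lower, and the median log2 fold change was 0.39 over the axoneme genes and -0.31 over all genes. The median under TMM was 0.71, against 0.00 over all genes, and it depended on RA-deficient PL 3. Without that library the median was -0.42 and 11 genes were called lower and 3 higher, where 14.5% and 11.5% of all genes were called. The comparison shares its In/B libraries with the one above.

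Compared directly, 7 of the 61 axoneme genes were called lower in RA-deficient than in RA-sufficient PL and 0 higher, where 15.5% of 15352 genes were called, 11% lower and 4.47% higher. The 7 were Dnah8, Cfap53, Cfap43, Dnaaf1, Cfap69, Ccdc40 and Dnah7b. An unadjusted p below 0.05 was reached by 29 genes with a negative and 2 with a positive fold change, and DESeq2 called 17 lower and 0 higher, where it called 13.1% of all genes lower. The median log2 fold change was -1.85 over the axoneme genes and -0.09 over all genes. With library size as the one scaling, 13% of all genes were called lower and 2.77% higher, and the medians were -2.03 and -0.27. In 41 of the 61 every RA-deficient library lay below every RA-sufficient library, against 27.3% of all genes. The share called lower, 7 of 61, was near the 11% of all genes, while more of them lacked overlap than among all genes. Of the 7, each was called in 1 or 2 of the 6 fits with a library left out, among them that without RA-deficient PL 3.

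The call between the PL groups turned on single libraries. Without RA-deficient PL 3, 43 of the 61 genes were called lower and 0 higher, where 20.4% and 8.01% of all genes were, and the median log2 fold change was -2.89. Without RA-sufficient PL 1, or without RA-deficient PL 2, 0 axoneme genes were called by edgeR, where 5.28% and 8.36% of all genes were called lower, and 12 and 20 of them had an unadjusted p below 0.05, each with a negative fold change. Without both RA-sufficient PL 1 and RA-deficient PL 3, an alternative chosen after seeing the data, 38 were called lower, where 18.7% of all genes were. RA-deficient PL 3 was the highest of its group in 53 of the 61 genes and at or above 2 times the mean of the other two in 41. RA-deficient PL 1 and 2 lay within or below the range of In/B in 43. Shares of all genes for these counts were not computed. RA-deficient PL 3 also departed from its group over all 15875 genes compared (r of 0.893 and 0.891). Whether the counts above are particular to the axoneme genes was not tested. Of the axoneme genes 14 were at 0 in some RA-deficient library, 3 in some In/B library and 0 in any RA-sufficient library. Between the groups, missing genes were not particular to the axoneme. Over the whole table, 14769 to 15327 genes had a count in RA-deficient libraries, 16758 to 18002 in In/B and 17541 to 18434 in RA-sufficient PL. RA-deficient libraries nevertheless had high totals, 25048240 to 27042274 counts. Within that group, 15289, 14769 and 15327 genes of the whole table had a count in libraries 1, 2 and 3. Axoneme genes at 0 numbered 10, 7 and 1 in the same order. Of the 13 axoneme genes at 0 in RA-deficient PL 1 or 2, 10 had at least 50 counts in RA-deficient PL 3.

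**Figure D2:**
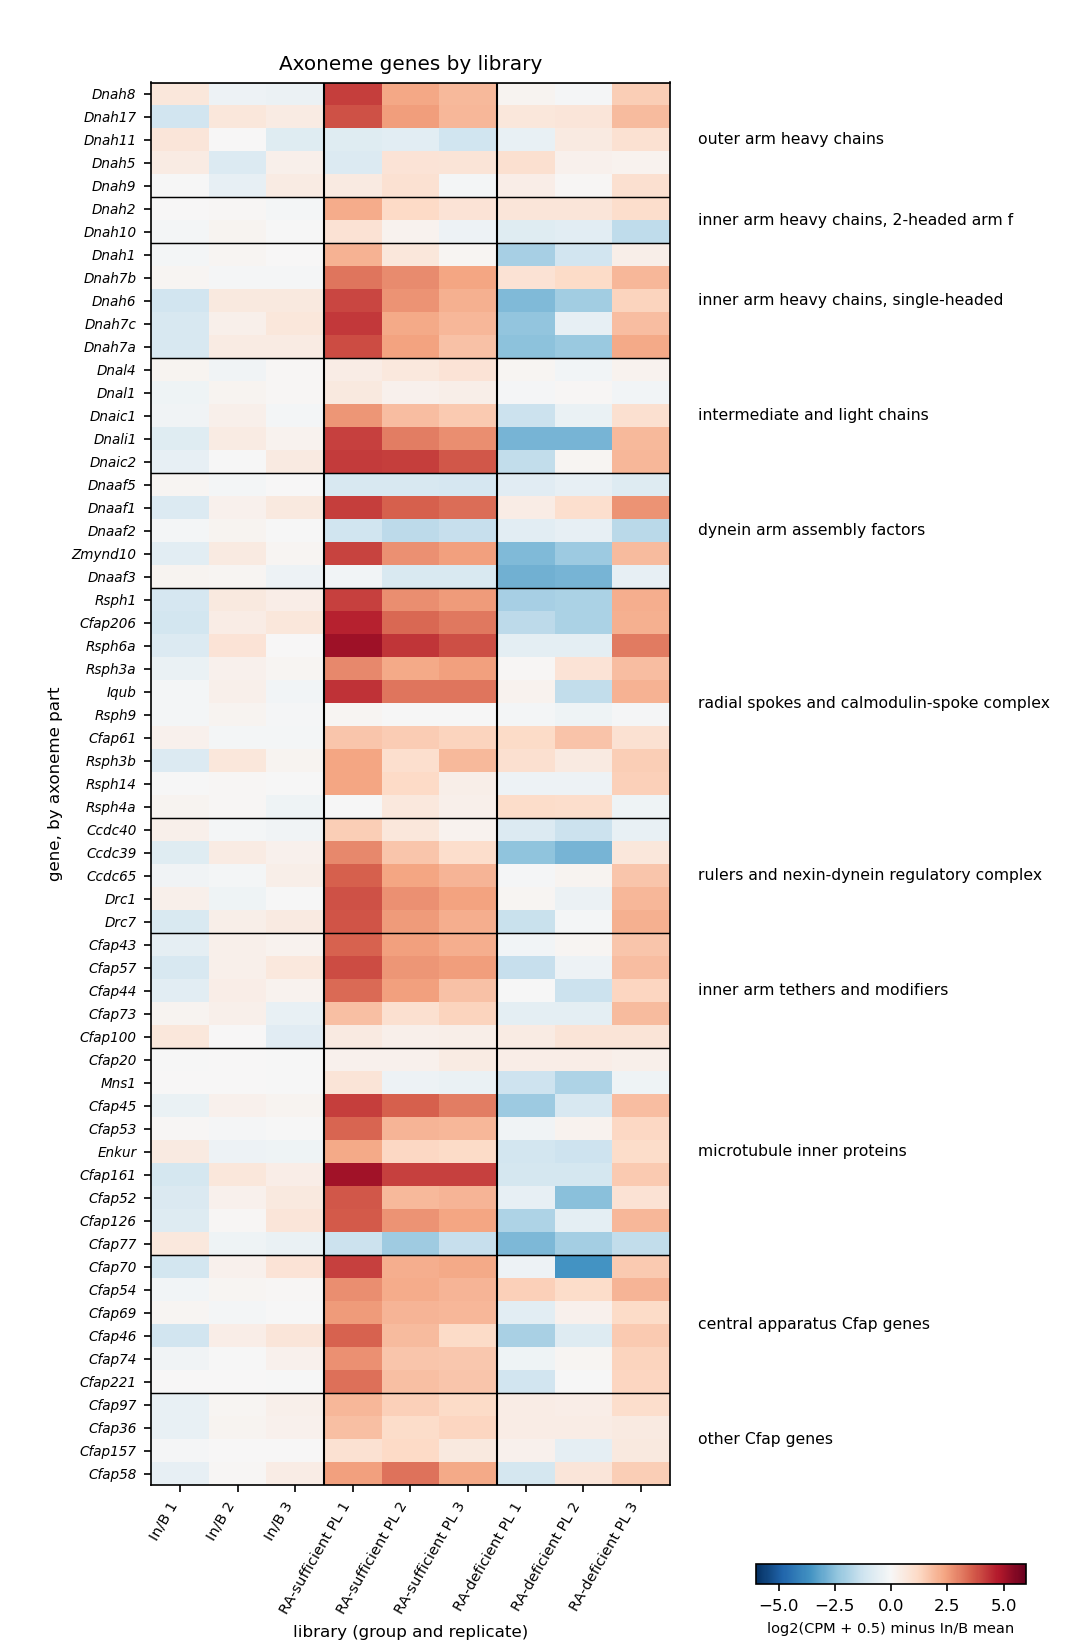
Each of the 61 axoneme genes (lines, ordered by axoneme part and then by mean level) in each of the 9 libraries (columns), as log2(CPM + 0.5) minus the mean of the 3 In/B libraries, red for higher and blue for lower. The median over the genes is 2.80, 1.80 and 1.66 in RA-sufficient PL 1 to 3 and -0.60, -0.38 and 1.27 in RA-deficient PL 1 to 3. These medians were taken against log2 of the In/B mean CPM + 0.5, not against the mean of the logged In/B values that is plotted. RA-deficient PL is split in most parts of the axoneme.

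Since most of the genes rose with RA, their promoters were searched for motifs of factors known from cilium genes. RefSeq gives a window of 250 bases before to 50 bases after the transcription start for 53 of the 61 genes, on build GRCm38.p6, which differs from the mm9 build of the counts. The core GTTGCC of the X-box, the motif bound by RFX factors at many cilium genes, was present on either strand in 19 of 53 windows (35.8%). It was present in 12.7% of all 27025 windows and in 13% of the 11564 windows of genes tested between In/B and RA-sufficient PL. Of the 37 windows of genes called higher 13 held it (35.1%), and of the other 16 windows 6 did (37.5%). The MYB motif AACNGTT was in 4 windows (7.55%) against 4.36% of all, and the forkhead core GTAAACA, as bound by FOXJ1, in 4 (7.55%) against 3.55%. An exact 2-sided form, GTTGCC and then its reverse complement 0 to 3 bases later, was in 0 of 53 and in 0.155% of all windows. Forms whose other side differs from these letters were not searched for. The 0 therefore does not mean that no window holds a 2-sided X-box. A match describes these letters in this window and is not evidence of binding. The stretches below are shown because they belong to genes that the results name. Each is on the gene's own strand, ends at or before the transcription start, and has the core in capitals, written GTTGCC or, on the opposite strand, GGCAAC.
Cfap161, chr7:83794840-83794918, minus strand: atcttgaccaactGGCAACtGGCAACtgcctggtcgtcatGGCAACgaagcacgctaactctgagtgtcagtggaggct
Dnaic2, chr11:114727353-114727418, plus strand: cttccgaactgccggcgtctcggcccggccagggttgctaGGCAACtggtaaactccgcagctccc
Dnah7b, chr1:46066650-46066735, plus strand: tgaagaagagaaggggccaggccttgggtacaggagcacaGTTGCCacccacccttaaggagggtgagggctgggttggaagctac
Cfap44, chr16:44394740-44394798, plus strand: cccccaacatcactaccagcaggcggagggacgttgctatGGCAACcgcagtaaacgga
Dnaaf2, chr12:69198430-69198478, minus strand: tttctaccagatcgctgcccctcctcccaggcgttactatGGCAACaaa
Cfap20, chr8:95434918-95435003, minus strand: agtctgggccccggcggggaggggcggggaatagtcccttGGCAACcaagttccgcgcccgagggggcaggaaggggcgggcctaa
Cfap161, the gene with the largest rise, held 3 cores within 79 bases, the last of them starting 39 bases before the transcription start. Cfap44 held 2, of which the nearer to the start is printed, Dnaic2 held 1, and Dnah7b, called in all 3 comparisons, held 1 that starts 163 bases before. Dnaaf2 was called lower in RA-sufficient PL and Cfap20 was called in no comparison, yet both hold a core, starting 9 and 94 bases before the start.

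Outer arm heavy chains split into sperm and other types. Dnah8 and Dnah17 are the outer arm motors of the sperm tail, and Dnah5, Dnah9 and Dnah11 those of airway and nodal cilia. Gene positions are those of GENCODE M1 on NCBIM37, the assembly of mm9. Dnah8 (chr17:30761299-31012209) had 122, 61.2 and 59.5 CPM in In/B, 1369.6, 379.7 and 296 CPM in RA-sufficient PL and 84.3, 72.9 and 212 CPM in RA-deficient PL. RA-sufficient PL 1 was far above the rest, and both of the other RA-sufficient libraries were still above every RA-deficient one. Dnah8 rose with RA by a log2 fold change of 3.13 ± 0.60 (SE) with an adjusted p of 0.00179 in edgeR, and without RA its log2 fold change against RA-sufficient PL was -2.51 ± 0.70 (adjusted p = 0.0391), called in 2 of 6 fits with a library left out. Without RA-sufficient PL 1 the difference between the PL groups was -1.44 with an adjusted p of 0.0993. Dnah17 had 7.32, 27.6 and 23.8, then 247, 97.4 and 68.1, then 27.4, 28.3 and 63.8 CPM in the same order of groups. Dnah17 rose with RA (2.87, adjusted p = 0.00241), and its difference between the PL groups was -1.82 with an adjusted p of 0.0547, past the threshold without RA-deficient PL 3 (-2.30, adjusted p = 0.0114). Dnah5, Dnah9 and Dnah11 stayed between 0.643 and 5.99 CPM in all libraries, and none was called in any comparison.

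Inner arm f carries a pair of heavy chains, of which Dnah2 rose in both PL groups and Dnah10 was called in neither. Dnah2 (chr11:69234311-69362612) had 48.6, 49.2 and 44.0 CPM in In/B, 220.3, 109 and 83.7 CPM in RA-sufficient PL and 78.1, 78.1 and 97.6 CPM in RA-deficient PL. In/B libraries lay below all PL libraries, and the RA-deficient and RA-sufficient ranges overlapped. The log2 fold change from In/B was 1.60 ± 0.32 (adjusted p = 0.00236) with RA and 1.01 ± 0.15 (adjusted p = 0.00187) without. The latter is just past the fold threshold, and Dnah2 was no longer called without In/B 3 (0.96) or without RA-deficient PL 3 (0.90). Dnah10 had 31.7, 39.1 and 34.3 CPM in In/B, 63.9, 40.5 and 28.0 with RA and 20.6, 22.4 and 11.8 without, RA-deficient PL 3 being the lowest of its group. It was not called between the PL groups (-1.29, adjusted p = 0.0525), and was without RA-deficient PL 3 (-1.02, adjusted p = 0.0442).

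All 5 single-headed inner arm heavy chains rose with RA. Dnah7b (chr1:46123583-46430395) was called in every comparison. It had 7.10, 6.24 and 6.27 CPM in In/B, 64.8, 49.0 and 35.4 CPM with RA and 12.2, 15.1 and 27.8 CPM without, so that the 3 groups did not overlap and RA-deficient PL lay in the middle. Its log2 fold change from In/B was 2.98 ± 0.26 (adjusted p = 3.25e-05) with RA and 1.65 ± 0.36 (adjusted p = 0.00936) without, and the PL groups differed by -1.45 ± 0.38 (adjusted p = 0.0329). Reads of Dnah7b, Dnah7a and Dnah7c, near-identical paralogs on chromosome 1, may have been divided between them in counting, so the single values are uncertain. Dnah7a and Dnah7c had 41.6, 14.3 and 8.69 and 49.2, 12.1 and 9.88 CPM with RA. Dnah7a was at 0, 2 and 294 counts in RA-deficient PL and Dnah7c at 0, 34 and 203, which shows the split of that group in raw counts. Dnah6 had 1.34, 5.63 and 5.71 CPM in In/B, 66.1, 26.1 and 17.4 CPM with RA and 0.160, 0.475 and 10.1 CPM without, and was not called between the PL groups (-3.39, adjusted p = 0.115). Dnah1 (chr14:32073561-32137082) had 26.1, 30.7 and 29.1 CPM in In/B, 121, 45.9 and 31.3 with RA and 6.88, 12.6 and 36.8 without. Its rise with RA (1.26 ± 0.44, adjusted p = 0.0306) rested on RA-sufficient PL 1, without which the log2 fold change was 0.48 with an adjusted p of 0.0625, and it was also not called without any single In/B library (adjusted p = 0.0647 to 0.0832).

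Per length, the sperm outer arm motor led the heavy chains with RA. Divided by exon length in GENCODE M1, the RA-sufficient mean was 46.5 ± 40.7 CPM per kb for Dnah8 (SD, n = 3), 9.29 ± 4.91 for Dnah2, 8.35 ± 5.83 for Dnah17, 5.13 ± 3.74 for Dnah1, 4.02 ± 1.19 for Dnah7b, 3.13 ± 1.29 for Dnah10 and 2.76 ± 1.96 for Dnah6. The lowest Dnah8 library, 20.2 CPM per kb, was above the highest of any other heavy chain, 15.0 CPM per kb of Dnah17. From Dnah2 down to Dnah6 each neighbour in this order overlapped the next. Dnah5, Dnah9 and Dnah11 followed at 0.157 ± 0.0952, 0.113 ± 0.0480 and 0.104 ± 0.0281 CPM per kb, below the lowest Dnah6 library of 1.31 CPM per kb and overlapping among themselves. Dnah7a and Dnah7c have short models in that annotation and were left out.

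**Figure D3:**
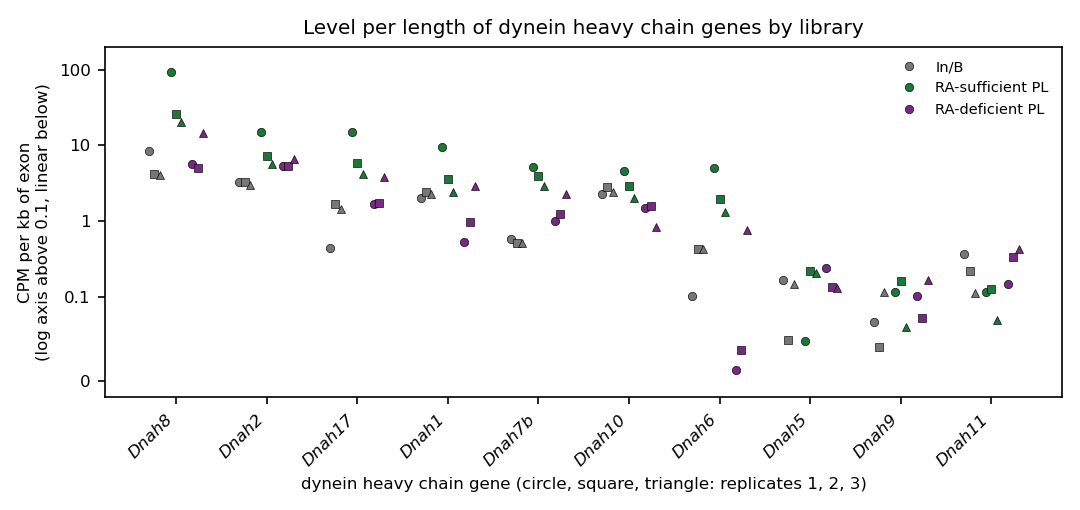
Level of 10 dynein heavy chain genes in CPM per kb of exon (log axis above 0.1, linear below), 1 symbol per library, grouped by gene and coloured by group. Dnah8 is highest in each RA-sufficient library, Dnah5, Dnah9 and Dnah11 lie below 1 CPM per kb throughout, and the RA-deficient libraries of Dnah6 lie far apart.

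Among intermediate and light chains, 3 rose with RA and the light chains Dnal1 and Dnal4 were not called. Dnaic1 and Dnaic2, the intermediate chains that anchor the outer arm, and Dnali1, a light chain of inner arms, were called higher with RA. Dnaic2 (chr11:114588722-114619203) had 0.503, 0.869 and 1.53 CPM in In/B, 25.2, 24.4 and 17.9 CPM with RA and 0, 1.03 and 5.12 CPM without. Its rise of 4.60 ± 0.40 (adjusted p = 3.52e-05) was the third largest of all members. Dnali1 (chr4:124732582-124742947) had 1.57, 4.31 and 3.50 CPM in In/B, 58.1, 28.2 and 23.1 CPM with RA, and 0, 0 and 290 counts in RA-deficient PL. Against the floor of 3 counts per library, Dnali1 was at least 305-fold lower in RA-deficient PL 1 and 2 than the RA-sufficient mean, while RA-deficient PL 3 was at 12.7 CPM. The light chain gene Dnal4 (chr15:79591883-79608279) had 28.3, 22.1 and 26.5 CPM in In/B, 34.9, 40.4 and 44.9 CPM with RA and 28.0, 22.9 and 29.1 CPM without. Every RA-sufficient library was above every In/B library, by less than the fold threshold (0.70, adjusted p = 0.0086). Dnal1, another light chain, had a log2 fold change of 0.46 (adjusted p = 0.0533). In all 5 genes of this part every RA-deficient library was below every RA-sufficient one, as in 27.3% of all genes tested. Between the PL groups edgeR called 0, with an unadjusted p below 0.05 for 3 (Dnaic1, Dnaic2 and Dnal4), and DESeq2 called 1 lower (Dnaic1).

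The assembly factors did not move as a group. Dnaaf1 and Zmynd10 rose with RA, Dnaaf2 fell, and Dnaaf3 and Dnaaf5 were not called. Dnaaf1 (chr8:122099135-122122354), a leucine-rich repeat protein needed for both kinds of arm, had 6.21, 13.6 and 17.4 CPM in In/B, 211, 142 and 121 CPM with RA and 15.8, 23.8 and 77.3 CPM without. Dnaaf1 rose with RA by 3.73 ± 0.37 (adjusted p = 6.37e-05) and was lower without RA, at a log2 fold change of -2.04 ± 0.58 (adjusted p = 0.0426), a call kept in 1 of 6 fits with a library left out, that without RA-deficient PL 3. Zmynd10 (chr9:107449639-107453650) had 114, 45.9 and 37.5 CPM with RA and 0.600, 1.03 and 25.5 CPM without, so that RA-deficient PL 1 and 2 were near 1 CPM and RA-deficient PL 3 lay below the lowest RA-sufficient library. Dnaaf2, a co-chaperone of dynein folding, went the other way, at 47.5, 57.1 and 50.7 CPM in In/B, 22.5, 17.04 and 19.8 CPM with RA and 33.6, 36.3 and 16.4 CPM without. Its log2 fold change with RA was -1.33 ± 0.17 (adjusted p = 0.000203), called in all 6 fits with a library left out. Dnaaf5 (chr5:139626177-139662464), a repeat protein of the same assembly step, had 135, 114 and 125 CPM in In/B, 62.6, 64.6 and 61.4 CPM with RA and 78.0, 87.4 and 73.3 CPM without, and fell short of the fold threshold (-0.93, adjusted p = 0.00026). Dnaaf1, Dnaaf3 and Dnaaf5 share 17.015%, 12.6% and 10.6% of their exon length with genes on the opposite strand, so their counts can hold reads of a neighbour if strand was not used.

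Radial spoke genes rose with RA, 7 of the 8 tested. Between the PL groups 0 of 10 were called by edgeR, where 3 had an unadjusted p below 0.05 (Rsph3a, Cfap206 and Rsph6a) and DESeq2 called 1 (Rsph3a), and RA-deficient PL 3 was the highest of its group in 8 of the 10. Rsph1 (chr17:31391964-31414301), a protein of the spoke head, had 13.8, 43.4 and 38.0 CPM in In/B, 501, 198 and 168 CPM with RA and 6.84, 7.33 and 131 CPM without. The RA-deficient libraries fell into a pair below every In/B library and 1 above all of them. Rsph1 rose with RA by 3.25 ± 0.52 (adjusted p = 0.000715), and the PL groups differed by -2.61 ± 1.16 (adjusted p = 0.147) with all libraries and by -5.34 (adjusted p = 0.000512) without RA-deficient PL 3. Rsph6a (chr7:19640039-19659796), the spoke head protein of sperm, had 0.391, 2.27 and 1.13 CPM in In/B, 53.7, 30.9 and 23.1 CPM with RA and 0.560, 0.555 and 13.4 CPM without, and a rise with RA of 4.83 ± 0.57 (adjusted p = 0.000137). Its counterpart in airway cilia, Rsph4a, stayed between 0 and 0.760 CPM and was not tested against In/B. Cfap206, at the base of a spoke, and Iqub, a spoke protein, rose with RA by 3.85 and 4.30 (adjusted p = 0.000361 and 7.36e-05). Rsph9, another spoke head protein, kept 5.93, 7.33 and 6.22 CPM in In/B, 6.99, 6.31 and 6.31 CPM with RA and 5.92, 5.27 and 6.21 CPM without, with log2 fold changes between -0.18 and 0.06 in the 3 comparisons. Cfap61 (chr2:145760520-146040775), of the calmodulin and spoke associated complex, had 2.12, 1.51 and 1.53 CPM in In/B, 6.55, 5.88 and 5.07 with RA and 4.32, 6.74 and 3.63 without. Cfap61 rose with RA (1.81 ± 0.34, adjusted p = 0.00156) and without (1.67 ± 0.51, adjusted p = 0.0346). The second call was kept in 1 of 6 fits with a library left out, that without RA-deficient PL 3. Rsph3a and Rsph3b are near-identical copies, so their values, up to 20.5 and 6.99 CPM, are uncertain. Rsph3a also shares 13.6% of its exon length with the opposite strand of other genes, so its counts can hold their reads if strand was not used.

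In the rulers and the regulatory complex, Ccdc39, Ccdc65, Drc1 and Drc7 rose with RA, and Ccdc40 was called between the PL groups alone. Ccdc40 (chr11:119089886-119126550) had 31.1, 23.1 and 21.5 CPM in In/B, 69.7, 40.3 and 28.9 CPM with RA and 13.9, 9.75 and 18.4 CPM without. RA-deficient libraries lay below every library of both other groups. The difference between the PL groups was -1.75 ± 0.41 (adjusted p = 0.0224), and the rise with RA, 0.93 ± 0.32 (adjusted p = 0.0305), was under the fold threshold. Its partner in the ruler, Ccdc39 (chr3:33711284-33743232), had 7.49, 17.8 and 15.0 CPM in In/B, 96.3, 40.8 and 26.4 CPM with RA and 1.96, 1.43 and 20.5 CPM without, and shares 17.5% of its exon length with a gene on the opposite strand. Ccdc39 in RA-deficient PL 1 and 2 was below the lowest In/B library and RA-deficient PL 3 was above the highest. Drc1, a scaffold of the regulatory complex, was at 32.1, 14.9 and 11.7 CPM with RA and 2.04, 1.31 and 8.79 CPM without. All 5 genes of this part were lower in every RA-deficient than in every RA-sufficient library, as were 27.3% of all genes tested.

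Of the inner arm tethers and modifiers, 4 were tested against In/B and all 4 rose with RA. Cfap43 and Cfap44 tie the head of inner arm f to the doublet. Cfap43 (chr19:47812051-47993777) had 6.54, 12.02 and 11.4 CPM in In/B, 118, 54.9 and 46.2 CPM with RA and 8.60, 10.4 and 32.0 CPM without. RA-deficient PL 1 and 2 fell in the In/B range, and RA-deficient PL 3 lay between In/B and RA-sufficient PL. The rise with RA was 2.92 ± 0.40 (adjusted p = 0.000276), and the PL groups differed by -2.13 ± 0.60 (adjusted p = 0.0413), called in 1 of 6 fits with a library left out, that without RA-deficient PL 3. Cfap44 rose by 2.84 (adjusted p = 0.000875) and Cfap57 by 3.17 (adjusted p = 0.000728), and neither passed between the PL groups (adjusted p = 0.0567 and 0.0761). Cfap73 was at 0, 0 and 53 counts in RA-deficient PL, and Cfap100 stayed at 0.874 CPM or lower in all libraries.

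Microtubule inner proteins held both the largest rise and a fall. Of 9 genes, 6 rose with RA and 1 fell. Cfap161 (chr7:90922611-90943390) had 0, 1.13 and 0.848 CPM in In/B, 33.2, 16.98 and 17.03 CPM with RA and 0, 0 and 2.58 CPM without. The rise of 5.07 ± 0.76 (adjusted p = 0.000464) was the largest of the 61 genes. Against the floor of 3 counts, the level in RA-deficient PL 1 and 2 was at least 188-fold lower than the RA-sufficient mean, and the difference between the full PL groups did not pass (-4.73 ± 1.56, adjusted p = 0.0668). Cfap53, which lies in the doublet and is known from left-right patterning, had 3.52, 3.14 and 3.28 CPM in In/B, 41.8, 15.3 and 14.6 CPM with RA and 2.76, 3.96 and 8.53 CPM without. Cfap53 rose with RA (2.90 ± 0.44, adjusted p = 0.000516) and was lower without (-2.26 ± 0.61, adjusted p = 0.0354), the latter called in 1 of 6 fits with a library left out, that without RA-deficient PL 3. Cfap77 (chr2:28810893-28910584) had 4.53, 2.23 and 1.92 CPM in In/B and 0.810, 0.243 and 0.750 CPM with RA, a log2 fold change of -2.20 ± 0.59 (adjusted p = 0.00978), and 0, 0.277 and 0.656 CPM without. Cfap20 (chr8:97944152-97958769), which is also found outside motile cilia, was at 61.8, 64.0 and 62.5 CPM in In/B, 76.3, 76.0 and 87.4 CPM with RA and 83.2, 83.9 and 78.6 CPM without. Both PL groups were above In/B by less than the fold threshold (0.40 and 0.55), and they differed by 0.03 ± 0.13 (adjusted p = 0.873). Mns1 had 81.5, 81.9 and 78.0 CPM in In/B, 139, 65.9 and 61.01 CPM with RA and 34.3, 21.8 and 67.2 CPM without and was called in no comparison.

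All 6 central apparatus genes rose with RA. Cfap69 (chr5:5579278-5664239) had 9.34, 7.94 and 8.59 CPM in In/B, 52.3, 36.4 and 36.2 CPM with RA and 5.44, 10.2 and 19.5 CPM without, with no overlap of the PL groups. Cfap69 rose with RA by 2.33 ± 0.22 (adjusted p = 4.86e-05) and was lower without RA, at a log2 fold change of -1.85 ± 0.47 (adjusted p = 0.0287). Cfap54 (chr10:92238364-92544363) rose in both PL groups, from 5.76, 7.07 and 6.95 CPM in In/B to 48.8, 32.2 and 28.3 CPM with RA and 18.4, 14.7 and 28.6 CPM without. Its log2 fold change from In/B was 2.52 ± 0.26 (adjusted p = 7.15e-05) and 1.81 ± 0.32 (adjusted p = 0.00348), each called in all 6 fits with a library left out. Cfap70 (chr14:21213412-21271448) had 2.29, 6.62 and 10.0 CPM in In/B, 103, 26.4 and 28.2 CPM with RA and 106, 0 and 393 counts without. The rise with RA was 3.11 ± 0.66 (adjusted p = 0.00315), and the wide RA-deficient spread left an SE of 1.41 on its difference between the PL groups (-2.92, adjusted p = 0.177). Cfap46, Cfap74 and Cfap221 rose with RA by 2.504, 2.23 and 3.24.

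The remaining 4 Cfap genes, Cfap36, Cfap58, Cfap97 and Cfap157, also rose with RA. In each every RA-deficient library was below every RA-sufficient one, as in 27.3% of all genes tested. Cfap97 (chr8:47237125-47280944) had 38.0, 56.7 and 64.5 CPM in In/B, 206, 139 and 116 CPM with RA and 70.5, 69.3 and 107 CPM without. Cfap97 rose with RA by 1.59 ± 0.26 (adjusted p = 0.000694), and its difference between the PL groups was -0.92 ± 0.28 (adjusted p = 0.0507). Cfap36 had the lowest adjusted p of the 61 genes between the PL groups (0.0223) with a log2 fold change of -0.98, just under the threshold for size. Cfap157 (chr2:32632901-32639948) had the smallest called rise with RA, 1.04 ± 0.28 (adjusted p = 0.00989), which was not called without RA-sufficient PL 2 (0.86). It shares 10.6% of its exon length with a gene on the opposite strand.

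**Figure D4:**
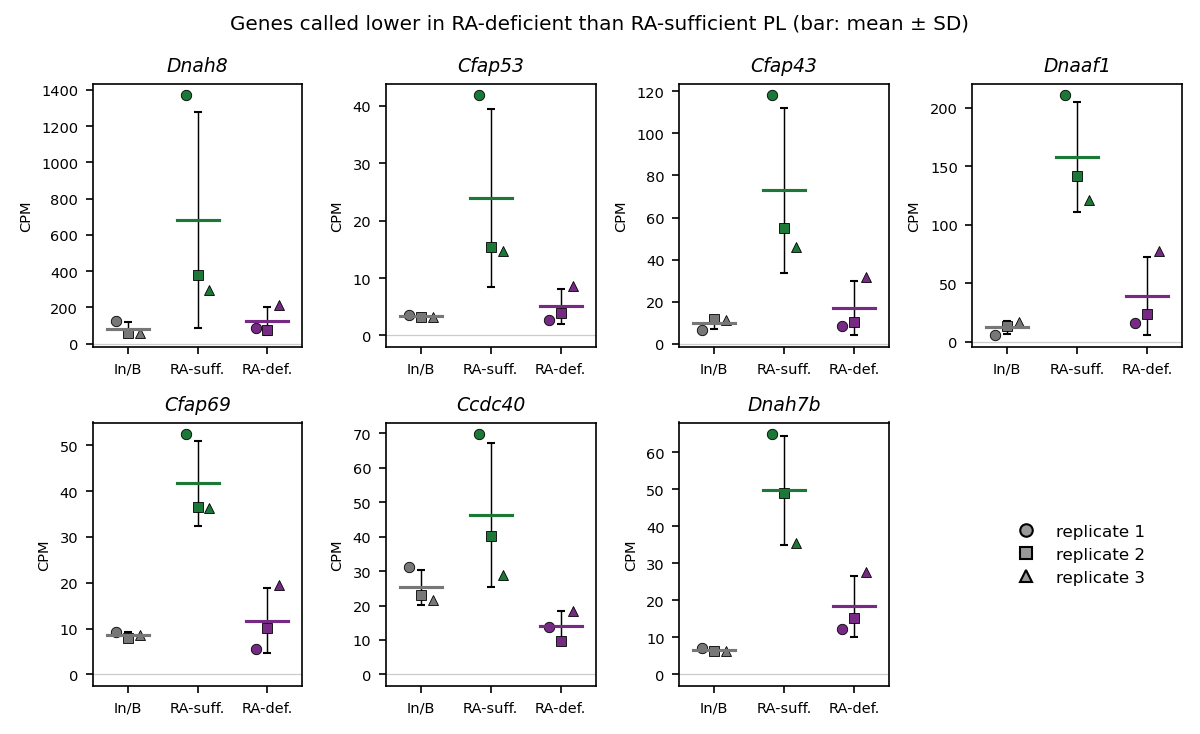
Level (CPM) of the 7 genes called lower in RA-deficient than in RA-sufficient PL, 1 symbol per library, with the mean (line) and SD (bar) of each group of 3. In each gene RA-sufficient PL 1 is the highest library, RA-deficient PL 3 the highest of its group, and no RA-deficient library reaches the RA-sufficient range.

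**Figure D5:**
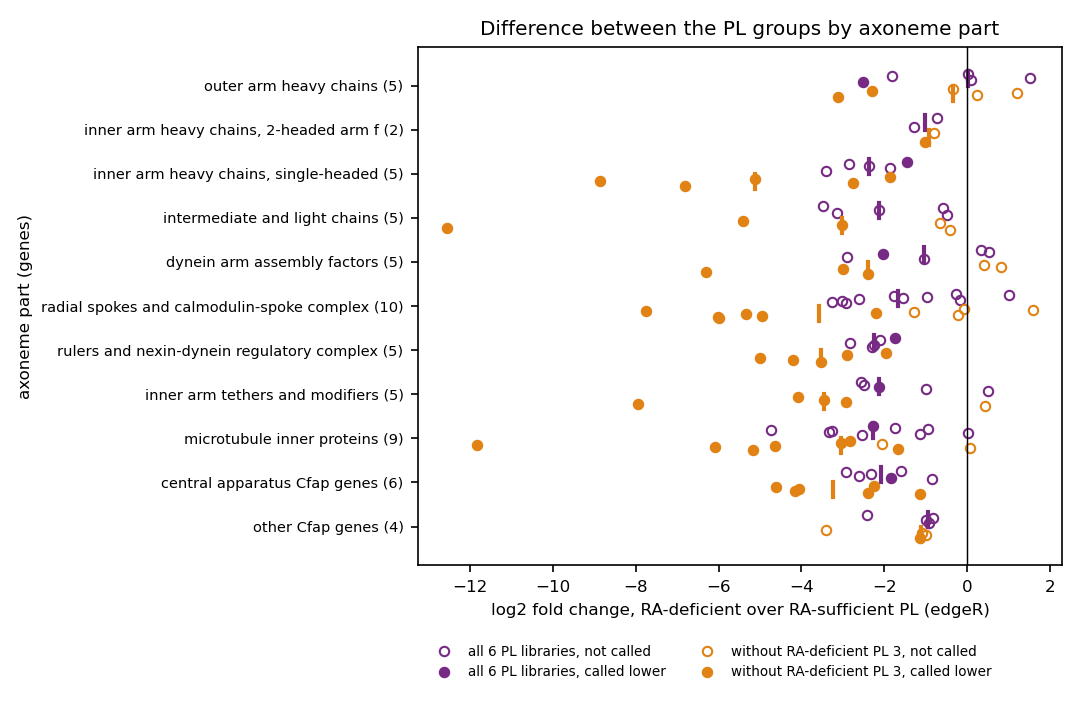
log2 fold change of each gene in RA-deficient over RA-sufficient PL, by axoneme part, with all 6 PL libraries (purple) and without RA-deficient PL 3 (orange), filled where called lower and with a bar at the median. Over the 61 genes the median moves from -1.85 to -2.89 and the number called lower from 7 to 43, where 11% and 20.4% of all genes were. Fitted values of genes with no counts in RA-deficient PL 1 and 2 depend on the fit's prior count.

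Without RA-deficient PL 3, every part held at least 1 gene called lower, where 20.4% of all genes tested were called lower in this fit. Most parts hold few genes, so a count such as 1 of 4 is near that share. They were 5 of 5 single-headed inner arm heavy chains, 5 of 5 ruler and regulatory complex genes, 6 of 6 central apparatus genes, 7 of 9 microtubule inner proteins, 6 of 10 radial spoke genes, 4 of 5 tethers and modifiers, 3 of 5 intermediate and light chains, 3 of 5 assembly factors, 2 of 5 outer arm heavy chains, 1 of 2 arm f heavy chains and 1 of 4 other Cfap genes. Genes such as Rsph9, Cfap20, Dnal1, Dnah5 and Dnaaf5 were not called in this fit either. Counts were at or under 3 in both RA-deficient PL 1 and 2 for 5 genes, Dnah7a, Rsph14, Cfap161, Cfap73 and Dnali1, and with these at their bound the median log2 fold change was also -2.89.

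Genes of the same structures that do not carry the symbols above were followed too. Of the 6 genes of the outer arm docking complex, which attaches the arm to the doublet, 5 were tested between RA-sufficient PL and In/B. Of these 4 rose, where 26.1% of all genes did. Ttc25, one of them, had 5.42, 5.37 and 7.35 CPM in In/B, 42.9, 27.7 and 23.6 CPM with RA and 2.48, 2.26 and 13.3 CPM without. The rise was 2.43 (adjusted p = 0.000143), and Ccdc151, Armc4 and Ccdc63 rose by 2.77, 3.30 and 2.502. Ccdc63 was at 0 counts in RA-deficient PL 1 and 2, and so was Armc4. Between the PL groups 0 of 5 were called by edgeR, where 3 had an unadjusted p below 0.05 and DESeq2 called the same 3 lower (Armc4, Ccdc151 and Ttc25), with a median log2 fold change of -2.41, against -0.09 over all genes. A second list held 24 dynein, radial spoke and regulatory complex genes under older names. Of 22 tested, 16 rose with RA and 0 fell, where 26.1% of all genes rose and 19.3% fell. Without RA, 5 of 20 rose, namely Lrrc6, Pih1d2, Lrrc48, Iqcg and Ccdc96, and 1 fell, Tctex1d2. Of all genes, 11.4% rose and 11.8% fell without RA. Iqcg, the most abundant of the list and a protein of the regulatory complex, had 7.44, 6.24 and 8.93 CPM in In/B, 57.7, 50.6 and 56.4 CPM with RA and 25.7, 20.1 and 82.1 CPM without, log2 fold changes from In/B of 2.92 (adjusted p = 1.52e-05) and 2.66 (adjusted p = 0.00651). Between the PL groups 2 of 22 were called lower and 0 higher, where 11% of all genes were called lower. DESeq2 called 12 of the list lower, where it called 13.1% of all genes lower, and without RA-deficient PL 3 edgeR called 19 of 23 lower, where 20.4% of all genes were. The 2 were Dnajb13, a spoke stalk protein, at 13.1, 9.22 and 6.53 CPM with RA and 2.56, 1.23 and 4.24 CPM without (-1.86, adjusted p = 0.0486), and Nme5, another spoke protein, at 21.7, 11.4 and 12.3 CPM with RA and 1.72, 2.14 and 6.38 CPM without (-2.17, adjusted p = 0.0374). Each was called in 1 of the 6 fits with a library left out, where the adjusted p reached 0.161 for Dnajb13 and 0.13 for Nme5. The median over this list was -2.01.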

How the data were processed

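mRNA from sorted cells was sequenced in 9 libraries (3 In/B, 3 RA-sufficient PL, 3 RA-deficient PL). The authors made the libraries with a stranded poly(A) kit, used cutadapt 1.9 for trimming, STAR 2.5.2b for alignment to mm9 and featureCounts for counting reads per gene, and the deposited values are raw read counts per gene, which is the unit used here. The gene annotation and the strand setting of the counting are not given in the sources used here. The total was 12612959 to 27042274 counts per library, and 0 columns of the table were left unused.

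Groups and replicate numbers came from the sample titles. Genes were filtered with filterByExpr for each pair of groups, scaled by TMM and tested with edgeR 4.0.16 (glmQLFit and glmQLFTest, R 4.3.3, 2 groups per fit), and p-values were adjusted by Benjamini-Hochberg over all genes tested. A gene was called at a log2 fold change beyond 1 and an adjusted p below 0.05. Error terms are the standard error of the log2 fold change or the SD over 3 libraries. A count of 3 served as the floor, for counting error only. DESeq2 1.42.0 and other settings were tried as alternatives, with their effect given in the closing section. Full statistics are given, in each part of the axoneme, for up to 2 genes with the lowest p among those called between the PL groups and for the gene with the highest mean CPM, over all members for the 3 largest and 3 smallest called fold changes in each comparison, and for genes called lower with RA or higher without. Other genes are named because a sentence turns on them, chosen after their values were seen.

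Members, gene lists (docking complex, older-name axoneme genes, cytoplasmic dynein, transcription factors, cell type markers) and tests were chosen with earlier results of these data known. Of the 61 genes, 16 were found in GENCODE M1 (NCBIM37, the assembly of mm9) by symbol and 42 by an older symbol, and 3 were not matched (Dnaaf2, Cfap46 and Cfap73). Promoter windows are those of RefSeq on GRCm38.p6. Columns other than counts were not used.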

Additional observations from a re-analysis of the deposited data

Results flagged for a closer look

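The effect of the PL stage against In/B differed between RA-sufficient and RA-deficient cells in 7 of 61 axoneme genes, since a direct edgeR test between the PL groups passed an adjusted p of 0.05 with a log2 fold change beyond 1. Over all genes tested, 11% were called lower by the same rule. The log2 fold change of RA-deficient over RA-sufficient PL was -2.51 for Dnah8 (adjusted p = 0.0391), -2.26 for Cfap53 (adjusted p = 0.0354), -2.13 for Cfap43 (adjusted p = 0.0413), -2.04 for Dnaaf1 (adjusted p = 0.0426), -1.85 for Cfap69 (adjusted p = 0.0287), -1.75 for Ccdc40 (adjusted p = 0.0224) and -1.45 for Dnah7b (adjusted p = 0.0329). Each was lower in 3 of 3 RA-deficient libraries than in any RA-sufficient one. With 1 library left out, Dnah8, Cfap69, Ccdc40 and Dnah7b were each called in 2 of 6 fits, and Cfap53, Cfap43 and Dnaaf1 in 1 of 6.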

How the results depend on the processing

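In RA-sufficient PL against In/B the number of axoneme genes called and their median stayed within 1.5 times, or within 1 SD, of the reported values under each alternative that was run. Of the results for single genes under alternatives, 2285 stayed on their side of the threshold, 69 of them with a change of sign in a value called in neither fit. A further 137 passed the threshold anew, 71 lost it, 5 turned direction with a call in 1 of the fits and 4 levels per kb moved by over 1 SD. Of all genes tested, 23.2% were called in RA-deficient PL against In/B, 23% by DESeq2 and 17.1% to 26.1% with 1 library left out. Of the axoneme genes 4 were called, 8 by DESeq2, 0 in a test against a fold change of 2 and 2 to 14 with 1 library left out. Their median, 0.71, ran from -0.42 (without RA-deficient PL 3) to 1.03, and with 1 library left out the log2 fold change ran from -5.64 to 1.46 for Dnah7a, -1.98 to 1.24 for Rsph1, -9.06 to 1.14 for Dnali1, -2.04 to 1.22 for Cfap206 and -2.87 to 1.09 for Zmynd10, turning negative without RA-deficient PL 3. Fitted values of genes with no counts depend on the prior count. Between the PL groups, 7 genes were called, against 14 with library size as the one scaling, 12 with no filter, 11 with a mean of at least 50 counts, 17 by DESeq2, 21 with all 9 libraries in 1 fit, 0 at an adjusted p of at most 0.01, 0 in a test against a fold change of 2, 0 to 43 with 1 library left out and 38 with RA-sufficient PL 1 and RA-deficient PL 3 both left out, the last chosen after seeing the data. Of all genes, 11% were called lower in the main fit, 13% with library size as the one scaling and 13.1% by DESeq2. With 1 library left out 5.28% to 20.4% were, and 18.7% with both of those libraries left out. For the other settings of this comparison such a share was not taken. The median of the axoneme genes ran from -2.89 to -1.29 with 1 library left out. With few libraries, 0 calls in a fit says little on whether the groups differ. The cause of these shifts was not tested.

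With the replicate number as a block, 3 genes were called between the PL groups. Same-numbered libraries did not deviate together (correlations of their deviations from the group means between -0.252 and 0.117), so the numbers were not taken to pair the libraries.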

Other observations

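Cytoplasmic dynein carries cargo along microtubules inside the cell, and 24 genes of it and of related proteins were followed. They include the separate Dync2 motor of cilia (with Dync2li1 and Wdr34), dynactin (Dctn) and regulators such as Nde1. From In/B to RA-sufficient PL 4 rose (Dync1i1, Dync2li1, Wdr34 and Dynlrb2) and 4 fell (Dync1li2, Dynlrb1, Dctn4 and Nde1), where 26.1% of all genes were called higher and 19.3% lower. Without RA 2 rose (Dync1h1 and Dync2li1) and 2 fell (Dctn4 and Nde1), where 11.4% and 11.8% of all genes did. Between the PL groups 1 was called higher in RA-deficient PL (Dync1h1) and 3 lower (Dync1i1, Dynlt3 and Dctn6), where 4.47% and 11% of all genes were. With 1 library left out, Dync1h1 and Dync1i1 were called in 6 of 6 fits, Dctn6 in 2 and Dynlt3 in 1. Dync1h1, the heavy chain of the Dync1 motor, had 1378, 1751 and 1708 CPM in In/B, 1233, 1515 and 1409 CPM with RA and 3201, 3500.3 and 2523 CPM without, so that RA-deficient PL lay above both other groups. The log2 fold change was 1.15 between the PL groups (adjusted p = 0.00297, edgeR) and 1.10 against In/B (adjusted p = 0.00085). Dync1i1, an intermediate chain, went the other way, at 2.24, 4.69 and 4.13 CPM in In/B, 30.2, 21.9 and 20.9 CPM with RA and 1.60, 3.05 and 5.82 CPM without (-2.81 between the PL groups, adjusted p = 0.00915).

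Among 16 transcription factors known for cilium or flagellum genes, 7 of 14 tested rose with RA (Foxj1, Rfx2, Rfx4, Mybl1, Sox30, Sox5 and Crem) and 1 fell (Trp73), where 26.1% of all genes rose. Without RA 7 of 15 rose (Rfx1, Rfx7, Mcidas, Mybl1, Sox30, Crem and Taf7l), where 11.4% of all genes did. The most abundant, Taf7l, had 547, 624 and 596 CPM in In/B, 718, 806 and 896 CPM with RA and 1307, 1278 and 1117 CPM without. Mybl1, a regulator of meiotic prophase genes, rose in both, from 7.10, 16.2 and 16.5 CPM in In/B to 166, 194 and 174 CPM with RA and 124, 117 and 226 CPM without (log2 fold changes of 3.80 and 3.72, adjusted p = 2.2e-05 and 0.000359). Sox30 and Crem, which act in spermatid gene expression, also rose in both. Rfx1, one of the factors that bind the X-box, was higher without RA, at 151, 145 and 106 CPM against 39.8, 52.8 and 59.3 CPM with RA (1.41, adjusted p = 0.00397). Rfx2 and Foxj1 rose with RA (1.25 and 1.10) and were not called between the PL groups (adjusted p = 0.072 and 0.188).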
